A study of Mus musculus with 32 samples.

Results

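The 33 genes described here encode lysosomal proteins of the mouse, namely 27 enzymes and helper proteins of the lumen, 5 proteins of the lysosomal membrane, and the transcription factor Tfeb, which turns on many of the others. A gene was a member if it stood on a fixed list of these names and if a probe set of the array carried its symbol and no other. All 33 were found among the 21789 probe sets with 1 gene name, of 35556 probe sets in all. Arsb had 2 such probe sets and the other members 1, and the probe set with the highest mean log2 intensity over all 32 arrays stood for the gene.

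The question behind the comparisons was how the expression of these genes differed by tissue and genotype in 2 mouse models of autism spectrum disorder. RNA was measured in the cerebellum and the blood of 5 Fmr1-KO mice, in which no cell makes FMRP, a protein that binds RNA, and of 5 WT mice of the same experiment, all on a congenic C57BL/6 background. It was also measured in 3 Tsc2+/- mice and 3 WT mice on a mixed 129/SvJae-C57BL/6J background. Tsc2+/- mice keep a working copy of Tsc2, a brake on the kinase complex mTORC1, because mice without any copy die before birth. The mice were 8 to 10 weeks old and received no treatment that the sources state. Cerebellum and blood came from the same animal, with 1 Affymetrix Mouse Gene ST array for each animal and tissue. The labels call every mouse female, whereas the methods call them male. The Y-linked gene Eif2s3y had intensities of 403 to 835 in cerebellum and 226 to 875 in blood. Kdm5d, also Y-linked, had 536 to 755 in cerebellum and 265 to 852 in blood. Uty, Y-linked as well, had 337 to 584 in cerebellum and 560 to 1452 in blood. Xist, which is active in females, had 44.5 to 106 in cerebellum and 17.3 to 62.6 in blood.

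Lysosomes are acidic organelles that take apart glycoproteins, glycogen, glycosaminoglycans, lipids and proteins with a large set of hydrolases, many of which cause a storage disease in humans when they are lost. On the lysosomal surface, mTORC1 phosphorylates TFEB and so holds it in the cytoplasm. When mTORC1 is off, TFEB enters the nucleus and binds a palindrome with the core CACGTG, known as the CLEAR element, in front of many lysosomal genes. The same core, a kind of E-box, is also bound by other factors such as MYC and USF.

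The promoters of some members show this core. Windows of 250 bases before to 50 bases after the start site, from RefSeq on GRCm38.p6, were at hand for 29 of the 33 members. Asah1, Ctsb, Galns and Npc1 had no window. The motifs searched were CACGTG and the longer TCACGTGA, which contains it. Both read the same on the 2 strands. CACGTG stood in the windows of 11 of the 29 members (37.9%), against 8.09% of 27025 genes with a window. TCACGTGA stood in 5 of the 29 (17.2%), against 1.12% of all genes. A match is a description of the letters and does not show binding. Shown here are stretches before the start site of 5 members with several cores and of 3 of the members to which the values below return. The values also return to members without the core in their window, among them Fuca1, Gusb, Man2b1 and Tfeb. The capitals mark CACGTG, and each stretch is written 5′ to 3′ on the strand of the gene. The stretches lie at chr8:13159086-13159160 (+) for Lamp1, chr7:126583338-126583399 (-) for Cln3, chrX:134601180-134601246 (-) for Gla, chr8:3500434-3500493 (+) for Mcoln1, chr7:142387906-142387939 (-) for Ctsd, chr11:119267809-119267842 (+) for Gaa, chr15:89477425-89477454 (-) for Arsa and chr11:101070007-101070040 (+) for Naglu.
Lamp1: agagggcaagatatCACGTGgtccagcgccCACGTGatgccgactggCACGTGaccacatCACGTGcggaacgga
Cln3: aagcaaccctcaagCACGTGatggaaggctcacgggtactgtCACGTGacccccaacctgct
Gla: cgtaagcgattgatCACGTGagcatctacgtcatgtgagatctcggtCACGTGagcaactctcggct
Mcoln1: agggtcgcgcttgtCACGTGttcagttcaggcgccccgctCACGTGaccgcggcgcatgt
Ctsd: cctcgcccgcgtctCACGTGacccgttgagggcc
Gaa: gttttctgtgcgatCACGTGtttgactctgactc
Arsa: cttcaactcagtgtCACGTGttgtctgctc
Naglu: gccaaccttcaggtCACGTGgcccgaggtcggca

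Lamp1 held 4 cores within 75 bases before its start site. Cln3, Gla and Mcoln1 held 2 cores each before the start site, and Ctsd held a second core farther upstream, outside the stretch shown. The remaining holders were Ctsa, Glb1 and Sgsh. By role, 3 of 4 membrane genes with a window held the core, 3 of 7 glycoprotein and glycogen hydrolases, 2 of 6 glycosaminoglycan hydrolases, 2 of 8 sphingolipid and sterol genes, 1 of 3 proteases and depalmitoylating enzymes, and not Tfeb itself. No match in a window says only that these letters are not in it.

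**Figure D1:**
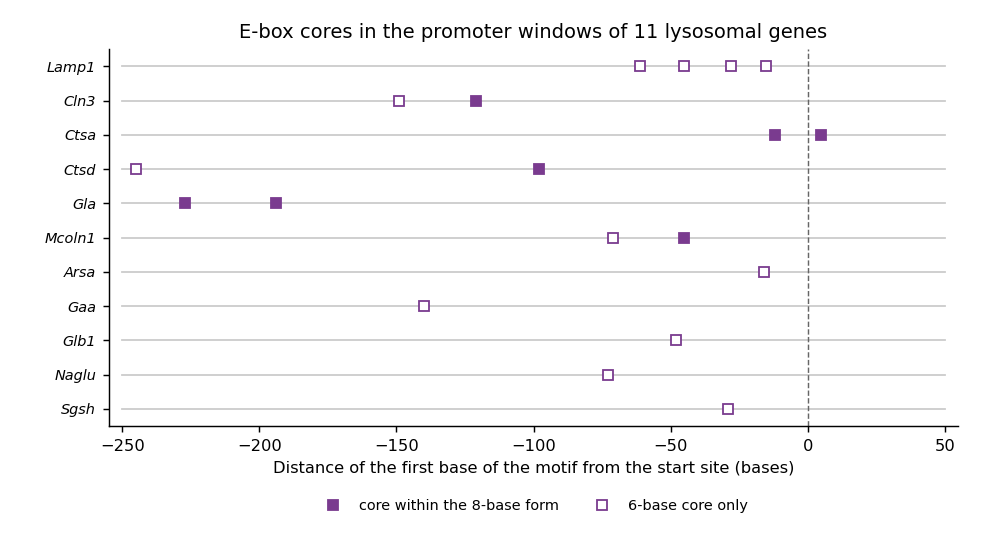
Position of each CACGTG core in the promoter windows of the 11 members that hold it, as distance of its first base from the start site in bases. Filled squares are cores within TCACGTGA and open squares are other cores. Lamp1 held 4 cores and 5 further members held 2.

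Expression is given as the intensity of the probe set on a linear scale, as deposited, and differences are on the log2 scale. Intensities of different probe sets were not set against each other. Neuron and platelet markers stood where the labels put them. The summed intensity of 6 neuron markers was 30494 to 40024 in the cerebellum arrays and 84 to 650 in the blood arrays, and that of 4 platelet markers was 213 to 543 in cerebellum and 1633 to 39406 in blood. A list of 8 microglia markers, some of which macrophages and platelets also express, was higher in blood, with 2061 to 2892 in cerebellum and 4404 to 22367 in blood. Fmr1 had intensities of 142 to 306 in the cerebellum of Fmr1-KO mice against 832 to 917 in their WT controls, and 169 to 263 against 335 to 660 in blood. Tsc2 had 713 to 1000 in the cerebellum of Tsc2+/- mice against 1110 to 1176 in WT, whereas in blood the ranges of 621 to 890 and 731 to 1008 overlapped. The cerebellum arrays of Fmr1-KO mouse 1 and WT mouse 1 stood apart from their groups, with correlations of 0.859 and 0.937 to the mean of the others against 0.968 to 0.986 for the other cerebellum arrays. WT mouse 1 had the highest value of its group for 26 of the 33 members. The tissue differences of the members kept 28 calls when either of these mice was left out.

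Between cerebellum and blood, the lysosomal genes split about evenly. In the Fmr1 experiment 14 members were higher in cerebellum and 14 lower at a Benjamini-Hochberg adjusted p under 0.05 in limma, with 51.8% of all probe sets higher and 20% lower. In the Tsc2 experiment 13 were higher and 15 lower, with 31% of all probe sets higher and 26.4% lower. The median difference over the members was -0.06 in the Fmr1 experiment, against 0.52 over all probe sets, and -0.26 in the Tsc2 experiment, against 0.03. The sign was the same in both experiments for 31 of the 33 members, and 12 were called higher and 12 lower in both. Across the 33 genes the 2 sets of differences had a Pearson correlation of 0.913, given as a description because genes are not independent and both experiments were normalized together. Since whole tissues were measured, fewer cells of a type and less RNA per cell cannot be told apart. The share of higher members depended on the scaling. With each array centred on its own median, the median of all probe sets moved by -0.55 and the split became 11 higher and 19 lower in the Fmr1 experiment. The shift was -0.20 and the split 8 and 17 in the Tsc2 experiment. Under centring the calls of Asah1, Manba and Mcoln1 were lost in the Fmr1 experiment, where the sign of Manba turned to -0.16, and those of Arsa, Arsb, Lamp1, Neu1 and Npc1 were lost in the Tsc2 experiment. With WT mice only, the Tsc2 experiment had 10 higher and 7 lower calls. The calls lost there were Arsb, Ctsa, Glb1, Idua, Lamp1, Lamp2, Naglu, Neu1, Npc1, Npc2, Tfeb and Tpp1, and Asah1 gained one.

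**Figure D2:**
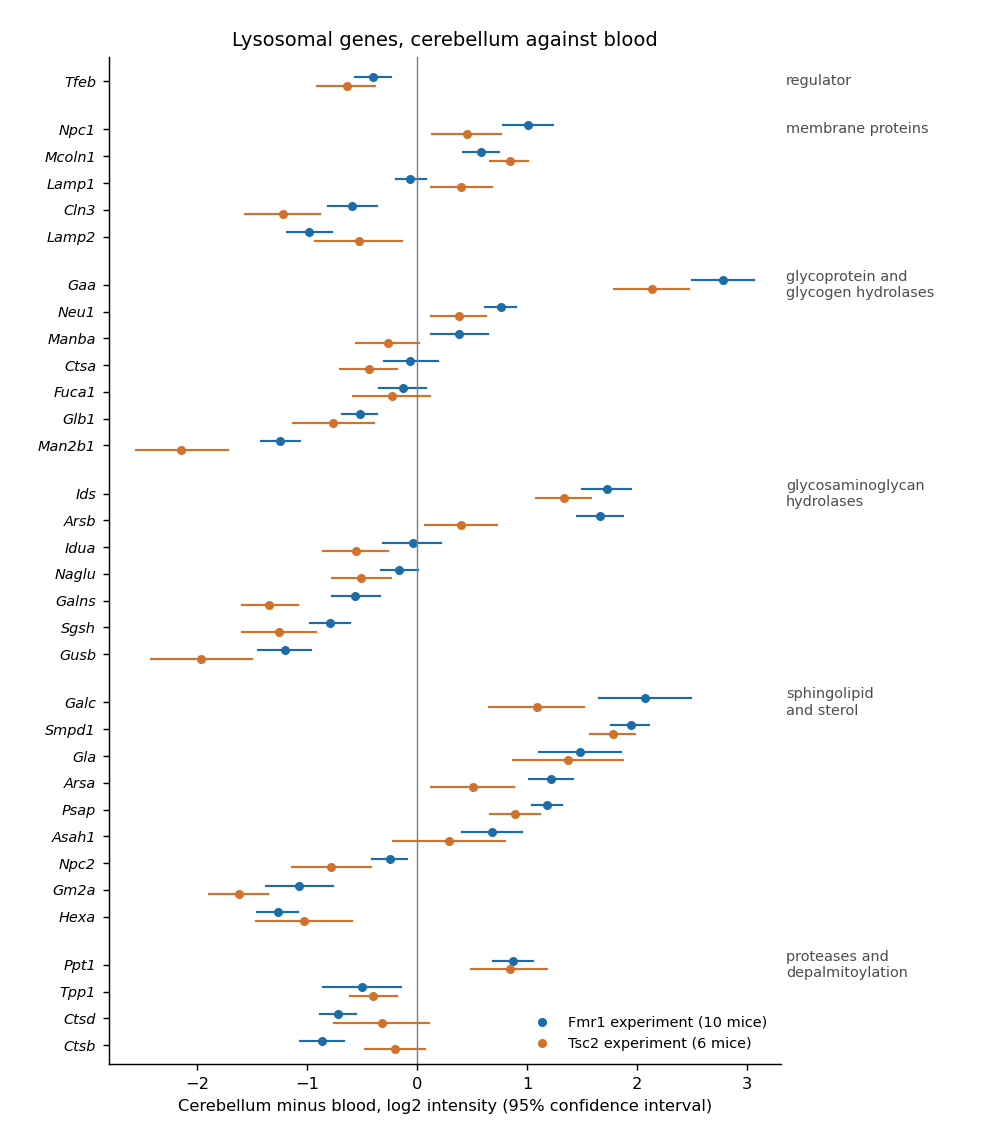
Cerebellum minus blood difference in log2 intensity for each of the 33 members, with 95% confidence intervals, in the Fmr1 experiment (10 mice) and the Tsc2 experiment (6 mice), grouped by role. Averaged over the 2 experiments, Gaa, Smpd1 and Galc lay farthest to the right and Man2b1, Gusb and Gm2a farthest to the left. The sign was the same in both experiments for 31 of 33 members.

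Gaa, the acid glucosidase that degrades glycogen, was the member with the largest difference in favour of cerebellum. Its intensity was 1593 to 3541 with a median of 2164 in the cerebellum of the 10 Fmr1-experiment mice, and 224 to 467 with a median of 306 in their blood. Tsc2-experiment mice had 2381 to 3447 with a median of 2669 in cerebellum and 474 to 948 with a median of 638 in blood. The tissues did not overlap in either experiment, and the log2 differences were 2.78 ± 0.13 (SE, adjusted p = 5.3e-13, n = 10 mice, limma) and 2.13 ± 0.15 (adjusted p = 2.9e-07, n = 6 mice, limma), that is 6.87-fold and 4.37-fold.

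Smpd1, the acid sphingomyelinase, followed on the average of the 2 experiments. Its intensity was 3131 to 4328 with a median of 3664 in cerebellum and 729 to 1133 with a median of 952 in blood in the Fmr1 experiment. Tsc2-experiment mice had 3403 to 4531 with a median of 4038 in cerebellum and 1068 to 1258 with a median of 1184 in blood. The differences of 1.94 ± 0.083 and 1.78 ± 0.094 had adjusted p-values of 8.2e-14 and 2e-08 in limma (± SE), or 3.83-fold and 3.42-fold.

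Galc removes galactose from the galactolipids of myelin. In the Fmr1 experiment it had 229 to 494 with a median of 341 in cerebellum and 43.6 to 148 with a median of 84.7 in blood. Tsc2-experiment mice had 301 to 411 with a median of 356 in cerebellum and 119 to 298 with a median of 155 in blood. The log2 differences were 2.07 ± 0.20 and 1.09 ± 0.20 (SE, adjusted p = 1.8e-08 and 0.0006 in limma). The tissues did not overlap in either experiment.

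Some other enzymes of sphingolipid breakdown were higher in cerebellum as well. Of the 9 members of the sphingolipid and sterol group, 6 were higher and 3 lower in the Fmr1 experiment, where 51.8% of all probe sets were higher and 20% lower. In the Tsc2 experiment 5 were higher and 3 lower, where 31% of all probe sets were higher and 26.4% lower. Gla, the galactosidase that acts on globotriaosylceramide, had 292 to 713 in cerebellum and 112 to 300 in blood in Fmr1-experiment mice, 415 to 710 in cerebellum and 152 to 351 in blood in Tsc2-experiment mice, and differences of 1.48 and 1.37 on the log2 scale. Psap, the precursor of the saposins that present lipids to the hydrolases, had medians of 8463 in cerebellum and 3780 in blood in the Fmr1 experiment, with 8954 and 4580 in the Tsc2 experiment, and differed by 1.18 and 0.89. Arsa, the sulfatase that degrades the myelin lipid sulfatide, had medians of 321 in cerebellum and 141 in blood, then 341 and 239, and differed by 1.22 and 0.51. Asah1, the acid ceramidase, was called only in the Fmr1 experiment, where its medians were 993 in cerebellum and 704 in blood. Its difference was 0.68 there and 0.29 in the Tsc2 experiment. The members of this group that were lower in cerebellum in both experiments were Gm2a, Hexa and Npc2. Gm2a and Hexa act on the same ganglioside, Gm2a as the activator that lifts it from the membrane and Hexa as a subunit of the hexosaminidase that cleaves it, and Npc2 binds cholesterol within the lysosome.

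Gm2a was among the 3 members with the largest differences in favour of blood, averaged over the 2 experiments. Its intensity was 1073 to 2623 with a median of 1493 in cerebellum and 2709 to 3917 with a median of 3266 in blood in the Fmr1 experiment. The values of Tsc2-experiment mice were 1430 to 1812 with a median of 1587 in cerebellum and 3914 to 5929 with a median of 5140 in blood. The tissues did not overlap, and the differences were -1.07 ± 0.15 and -1.62 ± 0.12 (SE, adjusted p = 2.1e-06 and 3.9e-07 in limma). Hexa had medians of 641 in cerebellum and 1517 in blood in the Fmr1 experiment, with 693 and 1308 in the Tsc2 experiment, with differences of -1.26 and -1.03. Npc2 had medians of 688 in cerebellum and 825 in blood, then 755 and 1275, with differences of -0.25 and -0.78.

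Man2b1 and Gusb, which cleave mannose from glycoproteins and glucuronate from glycosaminoglycans, were lower in cerebellum by more than Gm2a in both experiments. Man2b1 had 426 to 653 with a median of 508 in cerebellum and 1035 to 1472 with a median of 1211 in blood in the Fmr1 experiment. The values of Tsc2-experiment mice were 465 to 654 with a median of 570 in cerebellum and 1681 to 4435 with a median of 2315 in blood. The differences were -1.24 ± 0.087 and -2.14 ± 0.19 (SE, adjusted p = 1.6e-10 and 1.6e-06 in limma). Gusb had 120 to 249 with a median of 149 in cerebellum and 309 to 432 with a median of 357 in blood in the Fmr1 experiment, and 123 to 199 with a median of 153 in cerebellum and 405 to 1134 with a median of 557 in blood in the Tsc2 experiment. Its differences were -1.20 ± 0.11 and -1.96 ± 0.21 (SE, adjusted p = 1.5e-08 and 8e-06 in limma).

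Members that act on the same substrate stood on both sides. Among the 7 glycosaminoglycan hydrolases, Ids, the iduronate sulfatase, had medians of 2161 in cerebellum and 624 in blood in the Fmr1 experiment, with 2519 and 977 in the Tsc2 experiment, and was higher in cerebellum by 1.72 and 1.33. Arsb, which removes sulfate from dermatan sulfate, had medians of 1731 in cerebellum and 561 in blood, then 1915 and 1345, and was higher by 1.66 and 0.40. Galns, a sulfatase of keratan sulfate, was lower in cerebellum, with medians of 149 in cerebellum and 235 in blood, then 145 and 378, and differences of -0.56 and -1.34. Sgsh, the heparan sulfamidase, was lower too, with medians of 284 in cerebellum and 496 in blood, then 324 and 845, and differences of -0.79 and -1.25. Idua, the iduronidase, and Naglu, a further enzyme of heparan sulfate breakdown, were called lower only in the Tsc2 experiment. Idua had medians there of 414 in cerebellum and 605 in blood at -0.55, and 408 and 461 in the Fmr1 experiment at -0.04. Naglu had 258 in cerebellum and 353 in blood at -0.51 in the Tsc2 experiment, and 264 and 295 at -0.16 in the Fmr1 experiment.

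The glycoprotein and glycogen hydrolases were split as well. In the Fmr1 experiment 3 of 7 were higher and 2 lower, where 51.8% of all probe sets were higher and 20% lower. In the Tsc2 experiment 2 were higher and 3 lower, where 31% of all probe sets were higher and 26.4% lower. The sialidase Neu1 had medians of 600 in cerebellum and 362 in blood in the Fmr1 experiment, with 650 and 488 in the Tsc2 experiment, and was higher in cerebellum by 0.76 and 0.38. The galactosidase Glb1 had medians of 387 in cerebellum and 541 in blood, then 437 and 674, and differed by -0.52 and -0.76. Ctsa, which holds Glb1 and Neu1 in a complex, was called lower in the Tsc2 experiment, with medians of 2740 in cerebellum and 3666 in blood at -0.44, against 2658 and 2705 at -0.06 in the Fmr1 experiment. The mannosidase Manba had opposite signs, 0.38 in the Fmr1 experiment (medians of 253 in cerebellum and 197 in blood) and -0.26 in the Tsc2 experiment (285 and 347). The fucosidase Fuca1 was called in neither experiment, with medians of 412 in cerebellum and 469 in blood, then 496 and 560, at -0.13 and -0.23.

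Of the membrane proteins, the cholesterol exporter Npc1 had medians of 1103 in cerebellum and 572 in blood in the Fmr1 experiment, with 1296 and 950 in the Tsc2 experiment, and was higher in cerebellum by 1.01 and 0.45. The cation channel Mcoln1 had medians of 2349 in cerebellum and 1610 in blood, then 2689 and 1423, and was higher by 0.58 and 0.84. Cln3, whose loss causes juvenile Batten disease in humans, was lower in cerebellum, with medians of 401 in cerebellum and 627 in blood, then 428 and 928, and differences of -0.59 and -1.22. The coat glycoprotein Lamp2 was lower as well, with medians of 1983 in cerebellum and 4041 in blood, then 2122 and 2848, and differences of -0.98 and -0.53. Lamp1, the other coat glycoprotein, had 2439 to 2918 in the cerebellum and 2303 to 3252 in the blood of the Fmr1-experiment mice, a difference of -0.06 (adjusted p = 0.43, limma). In the Tsc2 experiment its medians were 3218 in cerebellum and 2326 in blood, with a difference of 0.40 (adjusted p = 0.016, limma).

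Among the proteases, the tripeptidyl peptidase Tpp1 was lower in cerebellum in both experiments, with medians of 994 in cerebellum and 1564 in blood in the Fmr1 experiment, with 1069 and 1398 in the Tsc2 experiment, and differences of -0.50 and -0.40. The cathepsins Ctsb and Ctsd were called lower only in the Fmr1 experiment. There Ctsb had medians of 3612 in cerebellum and 6723 in blood at -0.86, and Ctsd had 2024 and 3461 at -0.72. Tsc2-experiment medians of Ctsb were 4082 in cerebellum and 4662 in blood at -0.20, and Ctsd had 2194 and 2848 at -0.32. Ppt1, which removes palmitate from proteins, was higher in cerebellum, with medians of 2111 in cerebellum and 1191 in blood, then 2586 and 1414, and differences of 0.87 and 0.84.

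Tfeb itself was lower in cerebellum than in blood in both experiments. In cerebellum its values were 329, 387, 379, 386 and 334 in Fmr1-KO mice and 411, 404, 380, 377 and 377 in their WT controls. They were 398, 412 and 395 in Tsc2+/- mice and 410, 426 and 441 in WT, so that all cerebellum arrays lay between 329 and 441. In blood they were 370, 502, 441, 574 and 405 in Fmr1-KO mice and 588, 564, 507, 506 and 537 in WT. In the Tsc2 experiment they were 722, 798 and 675 in Tsc2+/- blood and 608, 668 and 456 in WT blood, so that blood spanned a wider range than cerebellum. The cerebellum minus blood differences were -0.40 ± 0.076 and -0.64 ± 0.12 (SE, adjusted p = 0.00012 and 0.00072 in limma), which is 1.32-fold and 1.56-fold lower.

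By genotype, no member of the Fmr1 experiment passed the unadjusted p of 0.01 that the methods used as their threshold. Over both tissues limma listed 0 of 33 members, with 0.304% of all probe sets listed, and 1 of 33 at an unadjusted p under 0.05, with 2.73% of all probe sets. That member was Tfeb, with a difference of -0.18 ± 0.076 (SE, unadjusted p = 0.029 and adjusted p = 0.98 in limma). Fmr1-KO mice 1 and 5 had the lowest Tfeb values of their group in both tissues, and WT mice 1 and 2 the highest. The fit took both arrays of a mouse as independent, so the SE and p of Tfeb are likely too small. Tfeb values in Fmr1-KO blood lay below the WT range in 4 of 5 mice, and the fifth lay inside it. The median difference of the members was -0.06, against -0.03 over all probe sets. Above 0 were 2 of 33 members and 43.2% of all probe sets. Without WT mouse 1 the median was -0.03 and 13 of 33 were above 0, and without Fmr1-KO mouse 5 it was -0.01 and 15 of 33 were above 0. The linear model without moderation also listed 0.

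In Fmr1-KO blood limma listed 0 of 33 members at p under 0.01 (0.582% of all probe sets) and 0 at p under 0.05 (3.5%), and the methods' t-test also listed 0. The median difference was -0.15, against -0.07 over all probe sets. Above 0 were 3 of 33 members and 37.2% of all probe sets. Glb1 had the smallest p. Its intensities were 532, 514, 512, 548 and 519 in Fmr1-KO blood and 640, 575, 722, 561 and 535 in WT blood, and the groups overlapped at 1 mouse of each. The difference was -0.20 ± 0.099 (SE, adjusted p = 0.96 in limma), and a two-sided exact permutation test of the 5 against 5 mice gave p = 0.016, where 5 against 5 mice can go no lower than 0.0079. The exact test gave p under 0.05 for 3 of 33 members, Ctsa, Glb1 and Psap. It was not run over all probe sets, so no share stands beside this count. In no member did the 2 groups stand apart without overlap, as they did in 0.562% of all probe sets.

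In Fmr1-KO cerebellum limma listed 0 of 33 at p under 0.01 (0.197% of all probe sets) and 0 at p under 0.05 (1.66%), as did the methods' t-test at p under 0.01. The median difference was 0.00 in size, against 0.02 over all probe sets. Above 0 were 15 of 33 members and 53.8% of all probe sets. The count of members was 27 without WT mouse 1 and 6 without WT mouse 3, so it rested on single mice. Manba had the smallest p, with 252, 266, 227, 242 and 192 in Fmr1-KO cerebellum and 324, 253, 260, 253 and 266 in WT cerebellum. The difference was -0.20 ± 0.12 (SE, adjusted p = 1 in limma), and the two-sided exact permutation p was 0.063. The value of 324 belonged to WT mouse 1, the array that stood apart. Again no member had groups without overlap, against 0.357% of all probe sets. The 95% intervals of the members reached at most 0.68 to either side of the estimate in cerebellum and 0.81 in blood, so smaller differences could not be resolved for every member.

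**Figure D3:**
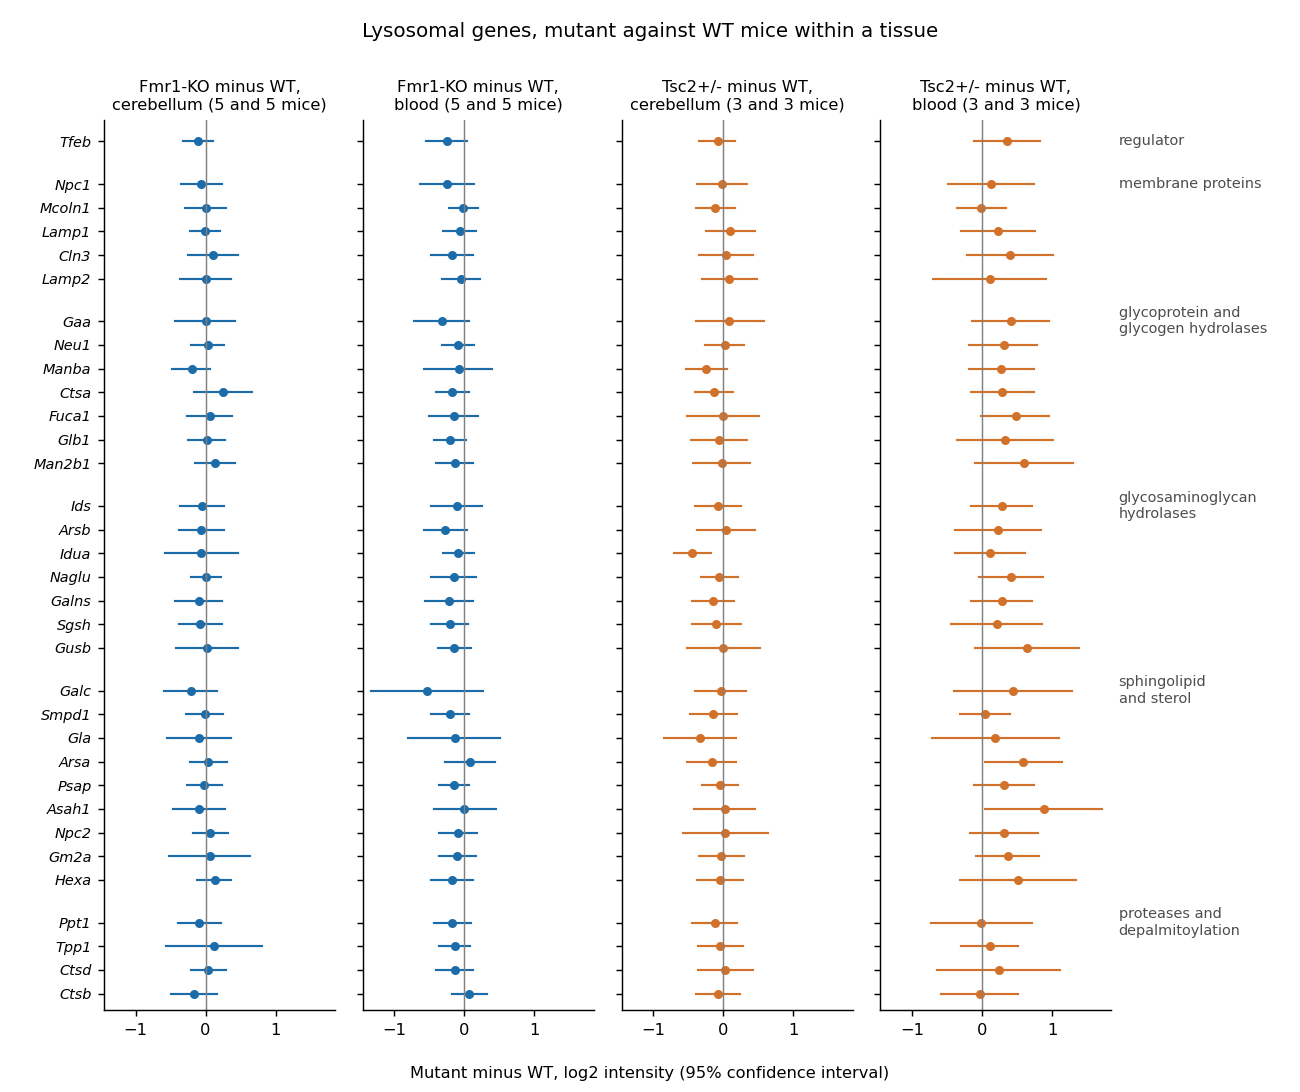
Mutant minus WT difference in log2 intensity for each of the 33 members, with 95% confidence intervals, in cerebellum and blood of the Fmr1 experiment (5 and 5 mice) and of the Tsc2 experiment (3 and 3 mice). Idua lay farthest to the left in Tsc2+/- cerebellum, and 30 of 33 points lay to the right of 0 in Tsc2+/- blood. Of all probe sets, 57.1% were above 0 there.

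In Tsc2+/- blood most members had higher intensities than in WT blood, although none passed the threshold. The difference was above 0 for 30 of 33 members, where 57.1% of all probe sets were above 0, and the median was 0.29, against 0.04 over all probe sets. limma listed 0 of 33 members at p under 0.01 (0.298% of all probe sets) and 2 at p under 0.05 (2.14%), Arsa and Asah1, and the methods' t-test listed 0 at p under 0.01. With 3 against 3 mice an exact permutation test cannot go below 0.1. In 8 of 33 members (24.2%) all Tsc2+/- mice lay above all WT mice, as did 4.36% of all probe sets, and these were Arsa, Asah1, Fuca1, Gaa, Gusb, Man2b1, Naglu and Tfeb. Members share samples and were chosen as a group, so no test was made over them together.

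Arsa had the smallest p in Tsc2+/- blood, with 271, 256 and 404 in Tsc2+/- mice and 182, 221 and 203 in WT mice. The difference was 0.59 ± 0.22 (SE, unadjusted p = 0.039 and adjusted p = 1 in limma), or 1.51-fold. Asah1 had 801, 1298 and 1920 in Tsc2+/- blood and 649, 776 and 641 in WT blood, with a difference of 0.88 ± 0.34 (SE, adjusted p = 1 in limma) or 1.84-fold. In the cerebellum of the same mice Asah1 had 1003, 1058 and 1416 in Tsc2+/- mice and 980, 1278 and 1147 in WT, where the groups overlapped. Over both tissues Asah1 had the smallest p of the Tsc2 experiment, at 0.45 ± 0.23 (SE, adjusted p = 1 in limma).

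The hydrolases Man2b1 and Gusb ranked the 6 mice in the same order as each other. Man2b1 had 2384, 2623 and 4435 in Tsc2+/- blood and 1681, 2246 and 2102 in WT blood. Gusb had 561, 718 and 1134 in Tsc2+/- blood and 405, 553 and 529 in WT blood. Gaa had 643, 648 and 948 in Tsc2+/- blood and 474, 563 and 632 in WT blood. In each of them Tsc2+/- mouse 3 was highest, and the other Tsc2+/- mice lay between mouse 3 and the highest WT mouse. Mouse 3 had the highest of the 6 blood values for 25 of the 33 members. Tfeb was an exception, where mouse 3 had 675 and was the lowest of the Tsc2+/- mice, at a group difference of 0.36 ± 0.19 (SE, adjusted p = 1 in limma).

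Blood markers also varied between these mice, and not all lists varied alike. The sum of 7 monocyte markers was 9605, 14711 and 20299 in Tsc2+/- blood and 8461, 11784 and 8726 in WT blood. Of these markers 6 of 7 had a difference above 0. Lyz2 of this list had 5637, 9446 and 12322 in Tsc2+/- blood and 4137, 7154 and 5446 in WT blood. F13a1 had 584, 425 and 1181 in Tsc2+/- blood and 1374, 783 and 737 in WT blood. The 8 microglia markers summed to 6655, 8028 and 22367 in Tsc2+/- blood and 6728, 7630 and 4404 in WT blood, with 5 of 8 above 0. C1qb, a complement gene of macrophages, had 1806, 4389 and 9429 in Tsc2+/- blood and 70.7, 2211 and 2276 in WT blood. P2ry12, which platelets also express, had 2569, 170 and 3832 in Tsc2+/- blood and 5539, 2956 and 139 in WT blood, so the sum mixes genes of unlike pattern. The sum of 8 neutrophil markers was 9599, 2800 and 18641 in Tsc2+/- blood and 9349, 11359 and 5667 in WT blood, and mouse 3 was highest in the monocyte, microglia and neutrophil lists alike. Monocytes and macrophages are known for their many lysosomes. The sum of 4 platelet markers was 21111, 2306 and 25393 in Tsc2+/- blood and 32840, 21815 and 1633 in WT blood, and the sum of 3 T cell markers was 11255, 8585 and 7696 against 10324, 11402 and 17884. For 3 B cell markers the sum was 16819, 23680 and 15334 in Tsc2+/- blood and 15880, 16789 and 15427 in WT blood. Without Tsc2+/- mouse 3 the median of the members was 0.18, with 26 of 33 above 0. Without Tsc2+/- mouse 2 and WT mouse 3, the mice with few platelet markers, it was 0.38 with 32 of 33 above 0, a choice made after the data had been seen. The part of these cell types in the differences was not tested.

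**Figure D4:**
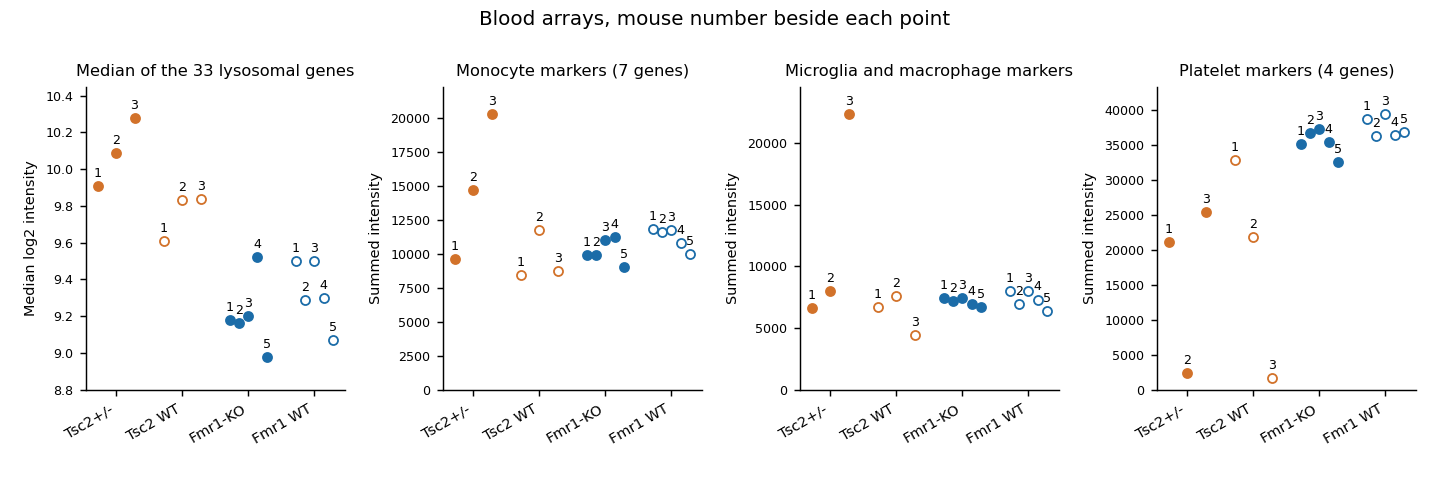
Each blood array of the 4 groups, with the mouse number beside the point: the median log2 intensity of the 33 members, and the summed intensities of the monocyte, the microglia (also macrophage), and the platelet markers. Tsc2+/- mouse 3 had the highest member median (10.28) and the highest monocyte (20299) and microglia (22367) sums, and Tsc2+/- mouse 2 and Tsc2 WT mouse 3 had the lowest platelet sums.

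Over both tissues of the Tsc2 experiment, limma listed 0 of 33 members at p under 0.01 (0.436% of all probe sets) and 0 at p under 0.05 (2.86%), and the linear model without moderation also listed 0. The median was 0.14, against 0.02 over all probe sets, with 27 of 33 members and 54.1% of all probe sets above 0. Without Tsc2+/- mouse 3 it was 0.03, against 0.04 over all probe sets, with 20 of 33 above 0.

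In Tsc2+/- cerebellum 1 of 33 members was listed. Idua had 355, 347 and 370 in Tsc2+/- cerebellum and 458, 512 and 483 in WT cerebellum, a difference of -0.44 ± 0.11 (SE, unadjusted p = 0.0067 and adjusted p = 0.86 in limma), or 1.35-fold lower. All Tsc2+/- mice lay below all WT mice. Listed at this threshold were 1.12% of all probe sets in either direction and 0.765% lower, and at p under 0.05 Idua remained the single member, with 4.94% of all probe sets. In the blood of the same mice Idua had 605, 531 and 791 in Tsc2+/- mice and 605, 640 and 522 in WT, where the groups overlapped. Idua in the cerebellum of the Fmr1 experiment was 683, 389, 387, 394 and 441 in Fmr1-KO mice and 790, 420, 390, 432 and 395 in WT mice. Its call was lost without any 1 of the 3 Tsc2+/- mice, without WT mouse 2 or 3, with arrays centred on their median, and with the replicate number as a block, where the unadjusted p was 0.016 in limma. The difference then lay between -0.46 and -0.40. Choroid plexus markers, from tissue beside the cerebellum, summed to 1041, 14924 and 16276 in Tsc2+/- cerebellum and 7424, 877 and 15623 in WT cerebellum, and their part in the values was not tested.

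Manba was the other member whose groups did not overlap in Tsc2+/- cerebellum. It had 257, 241 and 279 in Tsc2+/- mice and 294, 332 and 291 in WT mice, at -0.24 ± 0.12 (SE, adjusted p = 0.93 in limma). Of the members 2 of 33 lay lower without overlap, and of all probe sets 7.19%. The member median was -0.04, against -0.02 over all probe sets, with 10 of 33 members and 45.7% of all probe sets above 0. The number of members above 0 was 3 when Tsc2+/- mouse 3 or WT mouse 1 was left out, and it was 17 when WT mouse 3 was.

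**Figure D5:**
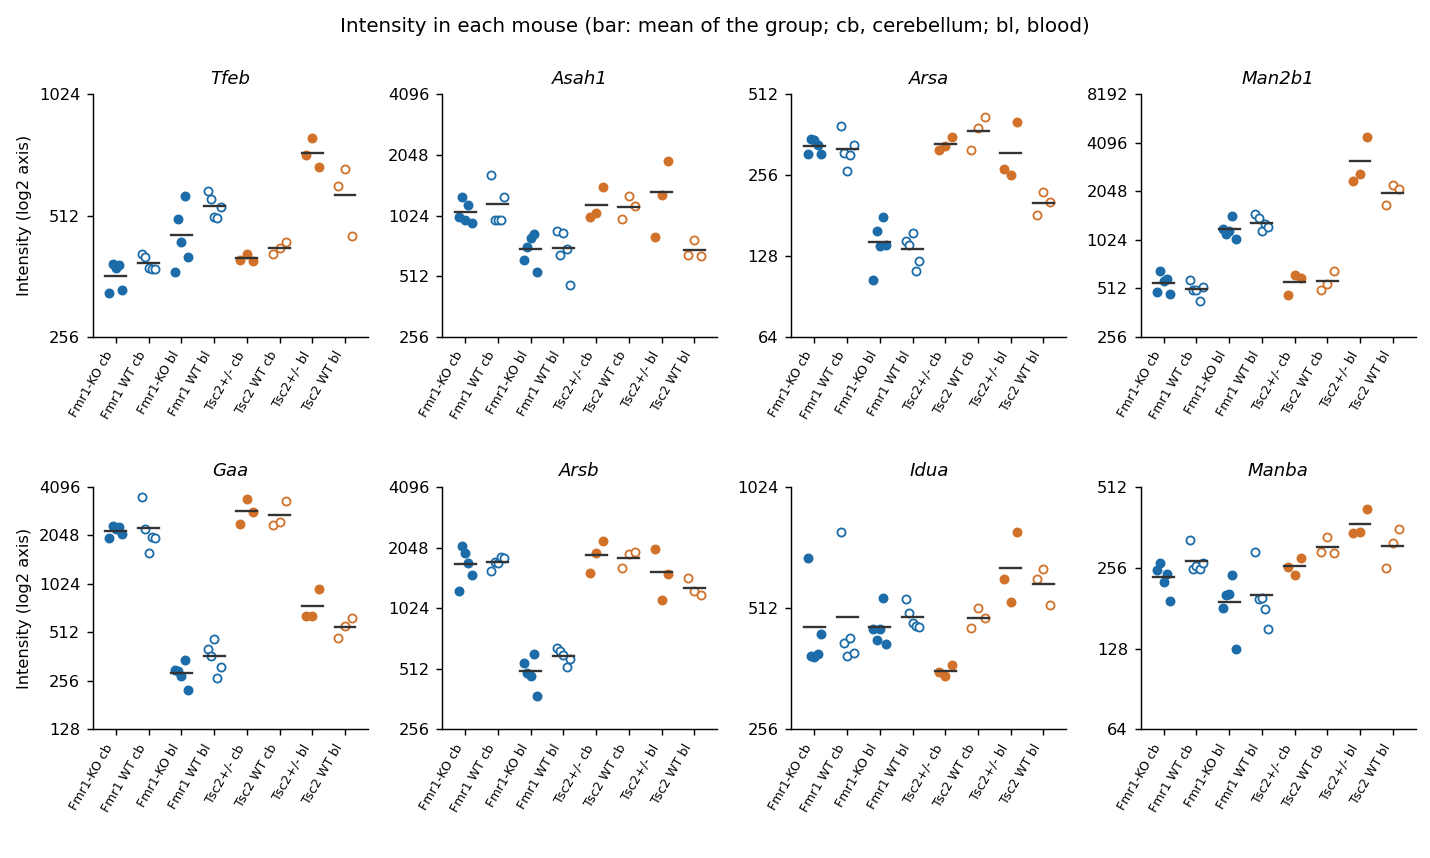
Intensity (log2 axis) of 8 members in each mouse, for mutant (filled) and WT (open) mice in cerebellum (cb) and blood (bl) of the Fmr1 experiment (blue) and the Tsc2 experiment (orange), with the mean of each group as a bar. Tfeb, Asah1, Arsa, Man2b1 and Gaa lay above WT in all Tsc2+/- blood arrays, and Idua and Manba lay below WT in all Tsc2+/- cerebellum arrays.

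Whether the genotype difference itself differed between tissues was tested by the interaction. In the Tsc2 experiment the interaction, cerebellum minus blood, was below 0 for all 33 members, with a median of -0.37 against -0.05 over all probe sets. Of all probe sets, 44.2% were above 0. The interaction rests on the same arrays as the comparisons within a tissue. limma listed 0 members at p under 0.01 (0.596% of all probe sets) and 4 at p under 0.05 (3.49%), Arsa, Idua, Manba and Naglu, of which Arsa had -0.75 (adjusted p = 1 in limma). In the Fmr1 experiment limma listed 0 at p under 0.01 (0.537%) and 0 at p under 0.05 (3.28%). The median was 0.16 against 0.12 over all probe sets, with 29 of 33 members and 65.5% of all probe sets above 0. The linear model without moderation listed 0 at p under 0.01 in both experiments.

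Between the models, the genotype difference in blood was greater in the Tsc2 experiment for 32 of 33 members, by a median of 0.47 on the log2 scale against 0.11 over all probe sets. It was greater there for 62.3% of all probe sets. limma listed 0 at p under 0.01 (0.509% of all probe sets) and 11 at p under 0.05 (3.63%). Gusb had the smallest unadjusted p, 0.011, at 0.80, and Tfeb had 0.61 (adjusted p = 1 for both in limma). At p under 0.01 the linear model without moderation listed 1, Psap, and limma with a mean-variance trend listed 3, Gusb, Man2b1 and Psap. In cerebellum limma listed 0 at p under 0.01 (0.487%) and 0 at p under 0.05 (2.23%), and the linear model without moderation also listed 0. The median was -0.04, against -0.03 over all probe sets.

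Between Tsc2 WT and Fmr1 WT mice 3 of 33 members were listed at p under 0.01, all higher in Tsc2 WT, with 7.89% of all probe sets listed in either direction and 5.93% higher, so that the share of members lay near that of all probe sets, and none passed an adjusted p of 0.05. At p under 0.05 it was 11 of 33, with 23.5% of all probe sets. Strain background and experiment cannot be told apart here. Arsb had 1614, 1906 and 1946 in Tsc2 WT cerebellum against 1559, 1737, 1725, 1843 and 1814 in Fmr1 WT cerebellum. In blood it had 1450, 1240 and 1196 in Tsc2 WT mice against 648, 626, 597, 523 and 574 in Fmr1 WT mice, where the groups lay far apart. The difference over both tissues was 0.60 ± 0.16 (SE, adjusted p = 0.11 in limma).

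Arsa had 317, 384 and 422 in Tsc2 WT cerebellum against 389, 310, 266, 305 and 332 in Fmr1 WT cerebellum, and in blood 182, 221 and 203 against 146, 141, 156, 112 and 123. Man2b1 had 499, 545 and 654 in Tsc2 WT cerebellum against 575, 499, 498, 426 and 518 in Fmr1 WT cerebellum, and in blood 1681, 2246 and 2102 against 1472, 1395, 1157, 1284 and 1221. For both, the groups overlapped in cerebellum and stood apart in blood. Their differences over both tissues were 0.40 ± 0.11 and 0.39 ± 0.11 (SE, adjusted p = 0.11 for both in limma). The median over the members was 0.17, against 0.07 over all probe sets. The count of listed members depended on single mice. It was 10 without Fmr1 WT mouse 1, 11 without only the cerebellum array of that mouse (an alternative chosen after the data had been seen), 5 without Tsc2 WT mouse 1, 2 without Fmr1 WT mouse 4, and 1 without Tsc2 WT mouse 2 or 3.

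Members with and without the core in the promoter had like medians. In Tsc2+/- blood the 11 members with CACGTG had a median difference of 0.29, with 10 of 11 above 0, and the 18 members with a window but without the core had 0.31, with 17 of 18 above 0. Of all probe sets, 57.1% were above 0 there. In Fmr1-KO blood the medians were -0.15 and -0.14. In the tissue comparison they were -0.06 and -0.09 in the Fmr1 experiment, against -0.32 and -0.33 in the Tsc2 experiment. These are descriptions without a test.

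Other genes of the pathway were taken from lists set by function. For reading their counts, 51.8% of all probe sets were higher and 20% lower in the Fmr1 experiment, and 31% were higher and 26.4% lower in the Tsc2 experiment. These counts were not recomputed under other scalings. Of 18 genes of the mTORC1 arm at the lysosome, such as the Rag GTPases and the Lamtor scaffold, 16 were higher and 1 lower in cerebellum in the Fmr1 experiment, and 13 higher and 1 lower in the Tsc2 experiment. Of 15 measured subunits and partners of the proton pump that acidifies the lysosome, 10 were higher and 3 lower, and 12 higher and 2 lower. Of 20 measured other lysosomal proteins, 10 were higher and 8 lower, and 7 higher and 10 lower. Of 15 autophagy genes 6 were higher and 6 lower, and 7 higher and 5 lower, and of 9 genes that deliver enzymes to the lysosome 5 were higher and 2 lower, and 3 higher and 3 lower. Of the 4 TFEB family genes, Tfeb among them, 1 was higher and 3 were lower in both. Of 81 measured genes on these lists, 1 was listed by limma at p under 0.01 in a genotype comparison. This was Igf2r in Fmr1-KO blood, where 0.582% of all probe sets were listed. No gene was listed in Fmr1-KO cerebellum (0.197% of all probe sets), Tsc2+/- blood (0.298%) or Tsc2+/- cerebellum (1.12%). Nor was one over both tissues of the Fmr1 (0.304%) or the Tsc2 experiment (0.436%). Igf2r, the receptor that carries enzymes tagged with mannose phosphate to the lysosome, had 130, 99, 110, 158 and 143 in Fmr1-KO blood against 184, 224, 220, 225 and 156 in WT blood, a difference of -0.66 ± 0.16 (SE, unadjusted p = 0.0028 and adjusted p = 0.96 in limma). In Tsc2+/- blood no gene of these lists was listed in limma, where 57.1% of all probe sets were above 0. The median difference was 0.41 for the TFEB family with 4 of 4 above 0, 0.22 for the other lysosomal proteins with 19 of 20, and 0.22 for the proton pump with 10 of 15. It was 0.06 for the mTORC1 arm with 10 of 18 above 0, 0.05 for delivery with 5 of 9, and 0.10 for autophagy with 9 of 15. At an unadjusted p under 0.05 limma listed 0 of these genes as well. Cd68, a lysosomal protein of macrophages, was listed where the genotype difference in blood was compared between the models, at 1.07 ± 0.35 (SE, adjusted p = 1 in limma), and where that of the Fmr1 experiment was compared between tissues, at 0.68 ± 0.22 (SE, adjusted p = 0.99 in limma). It had 1482, 2011 and 3475 in Tsc2+/- blood against 1051, 1563 and 1157 in WT, and 1696, 1530, 1724, 1788 and 1201 in Fmr1-KO blood against 1875, 1895, 2376, 1839 and 1481 in WT.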

How the data were processed

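RNA from cerebellum and whole blood of 16 mice was hybridised to 32 Affymetrix Mouse Gene ST arrays. The values are linear intensities as deposited. The authors summarized probe sets with PLIER in Affymetrix Power Tools, of a version not given in the sources used here, and quantile-normalized all arrays together, so that level differences between whole tissues were reduced before deposit. Array intensities carry no read depth, and the number of arrays limits the precision. Of all values, 6.21% were under 16.

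Intensities were taken to log2 without an offset, and all 35556 probe sets were fitted with limma 3.58.1 (lmFit and eBayes; R 4.3.3, Python 3.11.15), each comparison in the arrays it is about. Adjusted p-values are Benjamini-Hochberg values over all probe sets. A tissue difference was called at an adjusted p under 0.05. In other comparisons a gene was listed when its unadjusted p was below 0.01, the threshold of the study's methods, with 2-sided exact permutation tests for single genes within a tissue. The fits were tested on simulated data. Probe sets were named from the platform annotation, in which 21789 had 1 gene name, 1621 several and 12146 none.

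The 33 members and all gene lists were chosen with earlier results of these data known. Every member is named. Values of every sample, or their range, are given for Tfeb and for the members with the largest and smallest tissue differences. These were 3 on each side, ranked by the average of the 2 experiments. Such values are also given for members listed in a genotype, model or WT comparison. Where a genotype comparison listed none, they are given for the member with the smallest p. Igf2r and Cd68 were named because they passed the same threshold. Fuca1, Gaa, Gusb, Man2b1 and Naglu in Tsc2+/- blood, and Manba in Tsc2+/- cerebellum, were named after their values were seen.

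Cerebellum and blood of 1 number came from the same mouse. Fits over both tissues had no term for the mouse and so took its arrays as independent. The within-mouse correlation over all probe sets was 0.00817 in the Fmr1 and 0.0607 in the Tsc2 experiment. This is 1 value for all probe sets. Where a gene varies alike in both tissues of a mouse, as Tfeb did in the Fmr1 experiment, its SE by genotype is too small. Mutant and WT mice share replicate numbers without a stated pairing. Alternatives were an offset of 16, arrays centred on their median, quantile normalization within tissue, the mean of all probe sets of a gene, a minimum intensity of 64 in a group, a linear model without moderation, a mean-variance trend, the methods' t-test, the replicate number or the mouse as a block, WT mice only, and each mouse left out. Separate animals were the replicates in the comparisons within a tissue, and arrays were the replicates in the fits over both tissues.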

Additional observations from a re-analysis of the deposited data

Results flagged for a closer look

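In 7 of 132 groups of 5 arrays tested, 1 array lay far from the other 4 by Dixon's test, where chance flags about 1 in 20. All were cerebellum arrays of a mouse numbered 1, whose arrays also stood apart in their correlation with the group. In Fmr1-KO mouse 1, Idua had 683, against 387 to 441 in the other Fmr1-KO mice. In WT mouse 1 of the Fmr1 experiment, Idua had 790, against 390 to 432 in the other WT mice. In that WT array Cln3 had 617 (others 355 to 394), Ctsb had 5104 (3523 to 3833), Ctsd had 2567 (1938 to 2024), Galns had 233 (144 to 149) and Manba had 324 (253 to 266). When genotype differences were compared between tissues or between models, limma listed 0 of 33 members at an unadjusted p under 0.01 in each case. At an unadjusted p under 0.05 it listed 0 and 4 members between tissues in the Fmr1 and the Tsc2 experiment (3.28% and 3.49% of all probe sets). Between models it listed 11 and 0 members in blood and in cerebellum (3.63% and 2.23% of all probe sets).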

How the results depend on the processing

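Of the counts of members called or listed, 325 values under the alternatives stayed within 1.5 times the count reported, 14 were higher and 12 lower. Most comparisons had a reported count of 0, and for these staying within that bound means a count of 0 again. Of the recomputed values for genes named with full values, 454 kept their direction and side of the threshold, 15 fell short of it and 1 passed it. Among the other members, the tissue difference of Manba in the Fmr1 experiment turned to -0.16 under centring, and that of Fuca1 in the Tsc2 experiment, which was not called, to 0.02 with WT mice only. With WT mice only, 17 members were called between the tissues in the Tsc2 experiment. Idua in Tsc2+/- cerebellum was lost, leaving a count of 0, with arrays centred on their median, with the replicate number as a block, and without Tsc2+/- mouse 2 and WT mouse 3. With that block the tissue call of Arsb in the Tsc2 experiment was lost too, leaving 27 members called, and no other call of a member changed. Correlations between mice of the same number ranged from -0.145 to 0.354. In cerebellum they were 0.319, 0.0643, 0.0173, -0.0648 and -0.0524 for numbers 1 to 5 of the Fmr1 experiment. They were 0.354, -0.128 and 0.295 for numbers 1 to 3 of the Tsc2 experiment. These values do not settle whether equal numbers mark pairs. For the genotype difference in blood between the models, 1 member was listed with quantile normalization within tissue, 1 with the linear model without moderation and 3 with a trend. Between WT mice, 1 was listed with quantile normalization within tissue and 11 without the cerebellum array of Fmr1 WT mouse 1. With 1 mouse left out in turn, the counts ranged from 28 to 29 and from 23 to 28 for tissue in the Fmr1 and the Tsc2 experiment, from 1 to 10 between WT mice, from 0 to 4 between the models in blood, and from 0 to 1 for genotype in the Fmr1 experiment, in Tsc2+/- blood and in Tsc2+/- cerebellum. The single members were Tfeb without Fmr1-KO mouse 4, Galc without Fmr1 WT mouse 5, and Asah1 without Tsc2+/- mouse 1. The causes were not tested. With 3 mice a group, the 95% interval of a member in Tsc2+/- blood reached up to 0.91 on the log2 scale to either side.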
